A study of Homo sapiens with 6 samples.

Results

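The genes for the channels, stores and pumps that move calcium were followed in EndoC-βH1 cells, an established human beta cell line. All 48 genes of the set were present in a table of 26485 gene symbols. The set was chosen by name with earlier results of these data known. It was made up of 8 pore and 9 auxiliary subunits of voltage-gated calcium channels, 6 release channels of the internal stores, 8 pumps, 5 genes of store-operated entry, 2 of mitochondrial uptake, 4 sodium-calcium exchangers and 6 TRP and polycystin channels. RNA was sequenced from 3 cultures whose lentiCRISPRv2 vector carried the guide sgZHX3-3 against ZHX3 (genotype label ZHX3 KO) and from 3 cultures with the Empty vector (genotype label WT). Both groups thus share the Cas9-bearing vector, antibiotic selection and growth as stable lines. A single guide was used. The labels number 3 biological replicates in each group but do not say whether they are separately made lines, so the p-values measure the spread between these cultures, which may be technical.

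ZHX3 RNA was higher in the libraries labelled sgZHX3-3. The counts were 7465, 8976 and 11046 in the libraries labelled sgZHX3-3 and 4938, 6484 and 4969 in Empty, a log2 difference of 0.75 (SE, the standard error, 0.0566, edgeR adjusted p = 1.62e-05). The ZHX3 transcript was therefore not depleted where the genotype label reads KO, and every direction below is stated for the libraries by their labels. The protein and the edit were not analysed here. ZHX3 shares 2.31% of its annotated exon bases with PLCG1 on the opposite strand, and whether counting used strand is unstated in the sources used here. PLCG1 had 81593 counts over all libraries and stood at 0.17 on the log2 scale (edgeR adjusted p = 0.0581). Library totals ran from 45101454 to 61051884 counts. Levels are given as CPM, the usual depth-scaled read count, with library sizes adjusted by TMM, a factor that lines up the bulk of the genes between libraries. The beta cell identity of the cultures was visible in the RNA, and all 13 beta cell markers were tested. They summed to 37166 to 45288 CPM in libraries labelled sgZHX3-3 and 31979 to 40106 CPM in Empty. CHGA made up most of this, at 26620 to 33205 CPM in libraries labelled sgZHX3-3 and 23272 to 29447 CPM in Empty. Of the 13 markers 8 were higher, where 7.11% of all tested genes were higher. CHGA (edgeR adjusted p = 0.152) and INS (0.219) were not among the 8. The insulin gene INS had 5771, 6404 and 7118 CPM in the libraries labelled sgZHX3-3 and 6502, 5260 and 5206 CPM in Empty. Of the other cell types, 5 alpha cell markers summed to 1264 to 1386 CPM in libraries labelled sgZHX3-3 and 1136 to 1366 CPM in Empty. TTR made up most of this sum, at 1188 to 1302 CPM in libraries labelled sgZHX3-3 and 1050 to 1278 CPM in Empty. LOXL4 was higher, IRX2 lower and the defining hormone gene GCG under 0.5 CPM in every library. The sums for 6 neuron markers were 381 to 386 CPM in libraries labelled sgZHX3-3 and 374 to 386 CPM in Empty, with NEFM higher, and those for 4 duct markers 71.4 to 76.3 CPM in libraries labelled sgZHX3-3 and 65.7 to 72.3 CPM in Empty. Of 5 acinar markers, 4 stayed under 0.5 CPM in every library and CPA1 was higher (log2 fold change 0.31, edgeR adjusted p = 0.0145). Endothelial markers summed to at most 0.0802 CPM, and 6 of 8 striated muscle markers stayed under 0.5 CPM in every library. Heat shock and oxidative stress genes differed between libraries. Sums over 10 such genes were 1038, 1098 and 977 CPM in the libraries labelled sgZHX3-3. In Empty 1, 2 and 3 the sums were 1307, 2162 and 2431 CPM. Of the 10 genes 6 were lower, where 4.98% of all tested genes were lower. The results were therefore also computed with Empty 2 and 3 left out. The part of the beta, alpha, neuron, duct and acinar markers in the results was not tested.

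In a beta cell, glucose metabolism closes potassium channels, the membrane depolarises, and voltage-gated calcium channels open and let in the calcium that triggers insulin release. Inositol trisphosphate (IP3) receptors and ryanodine receptors release further calcium from the endoplasmic reticulum. SERCA pumps refill this store, plasma membrane pumps and exchangers carry calcium out of the cell, and STIM and ORAI proteins open an entry path when the store runs low.

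Of the 46 members with enough counts to be tested, 16 rose and 0 fell in the libraries labelled sgZHX3-3 (edgeR's quasi-likelihood test, Benjamini-Hochberg adjusted p below 0.05 over all 16199 genes tested). The higher share was 34.8% of the members, where 7.11% of all tested genes were higher and 4.98% lower. The members were listed with earlier results of these data known, so this contrast is not an independent check. At an unadjusted edgeR p under 0.05, 25 of the 46 members were higher and 1, TRPC1, lower. Of all 16199 tested genes, 2353 were higher and 2207 lower at that threshold. DESeq2 called 19 members higher and 0 lower, with 8.26% of all genes higher. For limma-voom the counts were 16 and 0, with 7.07%. The calls lay mainly among the pore subunits (5 of 8 tested) and the release channels (4 of 5), with 2 of 8 auxiliary subunits, 2 of 8 pumps, 1 of 4 exchangers, 2 of 6 TRP and polycystin channels, and none in store-operated entry or mitochondrial uptake. The changes were small, from 1.13-fold to 1.78-fold. The median log2 fold change was 0.20 over the tested members and −0.0020 over all tested genes. RYR3 and CACNA2D4, the untested members, had at most 3 counts in any library. In bulk RNA, a change in the share of cells that express a gene and a change in RNA per cell cannot be told apart.

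**Figure D1:**
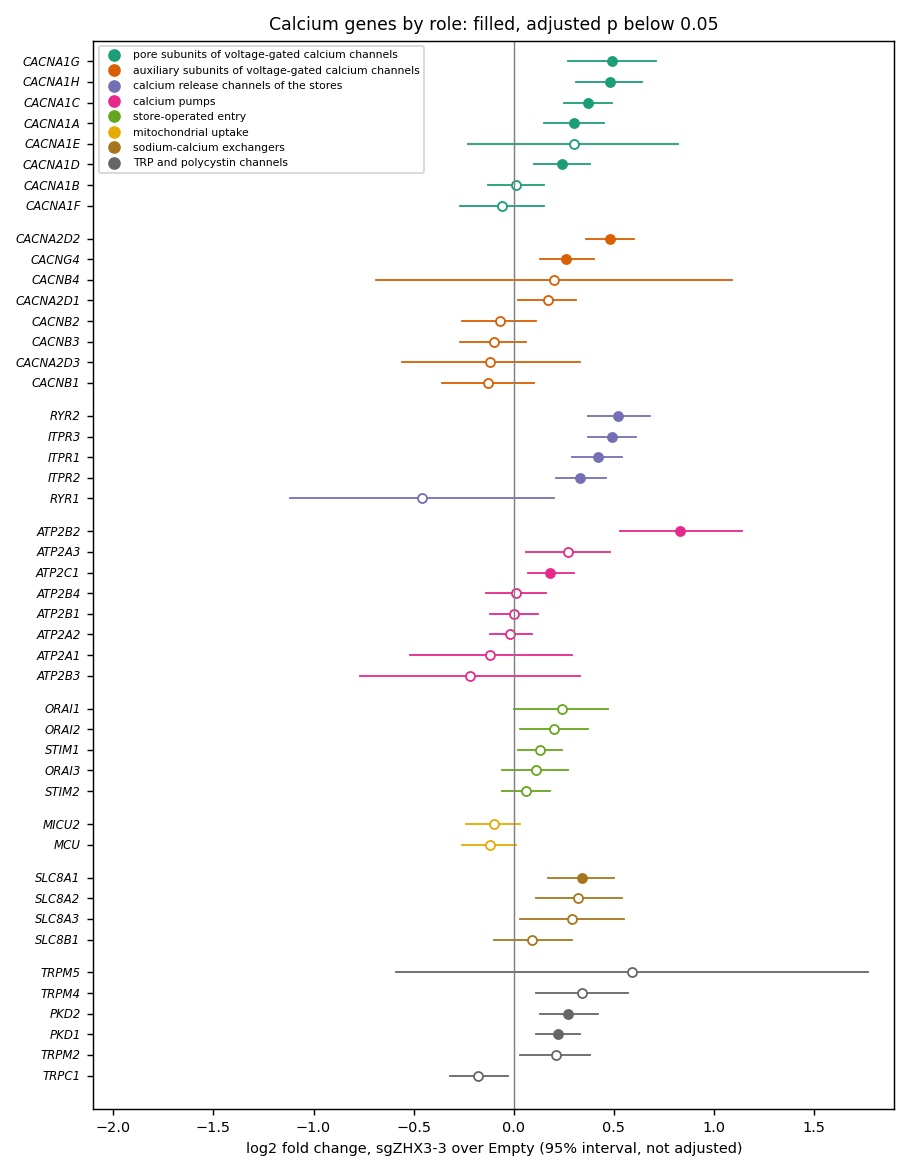
Log2 fold change of the libraries labelled sgZHX3-3 over Empty on the horizontal axis for the 46 tested members, grouped by role, with 95% intervals that are not adjusted for the number of genes. Filled points passed at an adjusted p below 0.05; all 16 of them lie to the right of 0, and 5 are pore subunits and 4 are release channels.

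Of the called members, 5 kept their call under each of 15 alternative settings, which included every library left out in turn, other scalings, other tests, Empty 2 and 3 left out, and removal of the gene span trend. They were the pore subunit CACNA1G, the auxiliary subunit CACNA2D2, the ryanodine receptor RYR2 and the IP3 receptors ITPR1 and ITPR3. How many of all genes called higher kept their call in every setting was not counted, so these 5 have no background share. The 250 bases before the RefSeq transcript start (GRCh38.p14) are shown for those of the 5 with an entry, because their calls held in every setting tried. Capitals mark the GC box GGGCGG on either strand. The CCAAT box, the site of NF-Y, a factor that ZHX proteins bind, was also searched on both strands and was not found in these 4 windows. CACNA1G is named only.
CACNA2D2, chr3:50504245-50504494, minus strand: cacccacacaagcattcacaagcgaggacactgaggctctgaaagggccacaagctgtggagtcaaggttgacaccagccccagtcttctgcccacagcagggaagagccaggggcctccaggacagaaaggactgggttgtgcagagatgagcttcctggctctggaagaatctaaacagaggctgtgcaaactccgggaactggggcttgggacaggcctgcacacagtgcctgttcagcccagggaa
RYR2, chr1:237041934-237042183, plus strand: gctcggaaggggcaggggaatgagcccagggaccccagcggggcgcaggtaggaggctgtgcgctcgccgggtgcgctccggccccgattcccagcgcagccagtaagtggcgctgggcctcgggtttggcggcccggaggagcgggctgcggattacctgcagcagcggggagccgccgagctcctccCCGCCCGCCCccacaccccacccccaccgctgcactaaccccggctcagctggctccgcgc
ITPR1, chr3:4493098-4493347, plus strand: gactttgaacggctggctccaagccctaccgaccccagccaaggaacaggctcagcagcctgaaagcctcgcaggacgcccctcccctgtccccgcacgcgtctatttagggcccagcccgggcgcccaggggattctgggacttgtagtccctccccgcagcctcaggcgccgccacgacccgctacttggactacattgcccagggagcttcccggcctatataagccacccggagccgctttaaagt
ITPR3, chr6:33621072-33621321, plus strand: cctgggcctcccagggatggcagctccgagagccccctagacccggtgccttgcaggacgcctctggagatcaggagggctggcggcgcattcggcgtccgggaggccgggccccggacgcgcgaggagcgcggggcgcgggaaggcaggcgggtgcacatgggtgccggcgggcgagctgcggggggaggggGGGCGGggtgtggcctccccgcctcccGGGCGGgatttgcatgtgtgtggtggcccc
RYR2 and ITPR3 have 2 GC boxes each, and CACNA2D2 and ITPR1 have none. The ITPR3 window lies inside the gene span given below, 57 bases from the nearest GENCODE transcript start. The GC box was present in 8 of 12 called members with a promoter entry, in 27 of all 40 members with one, and in 42.3% of 27305 promoters. The CCAAT box was present in 0 of the 12, in 9 of the 40 and in 33.0% of all promoters. Letters in a window describe the sequence and do not show that a factor binds there.

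Of the release channels of the stores, the 3 IP3 receptors and RYR2 were higher. ITPR3, an IP3 receptor, stood at 540, 572 and 609 CPM in the libraries labelled sgZHX3-3 and at 399, 423 and 401 CPM in Empty. Every library labelled sgZHX3-3 lay above every Empty library, as was so for 16.0% of all tested genes. The log2 fold change was 0.49 (SE 0.0559, edgeR adjusted p = 0.000221). ITPR3 lies at chr6:33620365-33696574 on the plus strand in GRCh38. It shares 10.39% of its annotated exon bases with UQCC2 on the opposite strand. Whether counting used strand is unstated in the sources used here. UQCC2 had 19445 counts over all libraries and stood at 0.17 on the log2 scale (edgeR adjusted p = 0.0984).

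ITPR1, the IP3 receptor best known from neurons, had 53.6, 54.9 and 54.6 CPM in the libraries labelled sgZHX3-3 and 41.0, 42.7 and 38.6 CPM in Empty. ITPR2, the third IP3 receptor, had 54.9, 54.8 and 54.0 CPM in the libraries labelled sgZHX3-3 and 40.9, 45.8 and 43.2 CPM in Empty. In both genes the groups did not overlap, and the libraries labelled sgZHX3-3 lay closer together than the Empty libraries. ITPR1 rose by 0.42 on the log2 scale (SE 0.0589, edgeR adjusted p = 0.000883) and ITPR2 by 0.33 (0.0595, adjusted p = 0.00369). RYR2, the ryanodine receptor of heart muscle, which is also the main one in beta cells, had 48.9, 49.5 and 53.6 CPM in the libraries labelled sgZHX3-3 and 35.9, 37.9 and 31.8 CPM in Empty. Its groups did not overlap, and its log2 fold change was 0.52 (SE 0.0726, edgeR adjusted p = 0.000765). RYR1, the ryanodine receptor of skeletal muscle, was barely present, at 0.447, 0.702 and 0.349 CPM in the libraries labelled sgZHX3-3 and 0.684, 0.558 and 0.815 CPM in Empty, and did not pass (log2 fold change −0.46, edgeR adjusted p = 0.356).

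Set against transcript length, the release channels kept similar shares of their sum in all libraries, while the sum itself did not overlap between groups. The 6 genes summed to 68.0, 71.4 and 75.3 CPM per kilobase in the libraries labelled sgZHX3-3 and to 50.4, 53.6 and 50.3 CPM per kilobase in Empty. ITPR3 made up 80.5% to 81.9% of this sum in the libraries labelled sgZHX3-3 and 80.0% to 80.7% in Empty. RYR2 made up 4.19% to 4.34% in the libraries labelled sgZHX3-3 and 3.82% to 4.30% in Empty. With Empty 2 and 3 left out, ITPR3 (0.53, edgeR adjusted p = 0.0156), RYR2 (0.50, 0.0347), ITPR2 (0.42, 0.0406) and ITPR1 (0.41, 0.0455) all still passed. ITPR2 lost its call once the gene span trend was taken out (0.17, edgeR adjusted p = 0.0917); RYR2 then stood at 0.31 and ITPR1 at 0.29, and both still passed.

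Among the pore subunits the T-type channels and some high-voltage channels were higher. CACNA1H, a T-type channel that opens at low voltage, had 436, 446 and 501 CPM in the libraries labelled sgZHX3-3 and 370, 321 and 305 CPM in Empty. The groups did not overlap, and Empty 1 was the closest of the Empty libraries to the libraries labelled sgZHX3-3. The log2 fold change was 0.48 (SE 0.0741, edgeR adjusted p = 0.00165). CACNA1G, the other T-type channel called, had 18.2, 18.5 and 21.7 CPM in the libraries labelled sgZHX3-3 and 12.0, 15.5 and 14.1 CPM in Empty, again without overlap. It rose by 0.49 on the log2 scale (SE 0.102, edgeR adjusted p = 0.00932), and in this gene Empty 1 was the lowest library. With Empty 2 and 3 left out CACNA1H lost its call (0.32, edgeR adjusted p = 0.119) and CACNA1G kept it (0.70, adjusted p = 0.0371).

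The L-type pores CACNA1C and CACNA1D, which carry much of the calcium current of beta cells, were both higher. CACNA1C had 150, 155 and 158 CPM in the libraries labelled sgZHX3-3 and 124, 122 and 112 CPM in Empty, a log2 difference of 0.37 (SE 0.0553, edgeR adjusted p = 0.00121). CACNA1D had 168, 160 and 155 CPM in the libraries labelled sgZHX3-3 and 127, 149 and 134 CPM in Empty, a log2 difference of 0.24 (SE 0.0636, edgeR adjusted p = 0.0290). Neither gene had overlapping groups, but in CACNA1D the gap between the lowest library labelled sgZHX3-3 and Empty 2 was small. CACNA1A, the P/Q-type pore, had 120, 125 and 145 CPM in the libraries labelled sgZHX3-3 and 107, 109 and 101 CPM in Empty (log2 fold change 0.30, SE 0.0707, edgeR adjusted p = 0.0164). These 3 genes span 427 to 727 kb of the genome, and none of them passed once the gene span trend was taken out (CACNA1C 0.16, CACNA1A 0.15, CACNA1D 0.08) or with Empty 2 and 3 left out (0.32, 0.28 and 0.34 in the same order). CACNA1A also lost its call without sgZHX3-3 library 2 (edgeR adjusted p = 0.0502) or Empty 3 (0.0936). CACNA1D lost it without sgZHX3-3 library 1 (edgeR adjusted p = 0.0839) or 2 (0.106), without Empty 3 (0.121), or with libraries scaled by their totals alone (0.0607). CACNA1D shares 6.8% of its exon bases with CHDH on the opposite strand.

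The remaining pore subunits did not pass. CACNA1B, the N-type pore, had 39.0, 40.3 and 41.9 CPM in the libraries labelled sgZHX3-3 and 37.1, 42.2 and 40.9 CPM in Empty, and the 95% interval of its log2 fold change ran from −0.13 to 0.15. CACNA1F, the L-type pore of the retina, was at 6.89 ± 0.298 CPM in the libraries labelled sgZHX3-3 and 7.21 ± 0.422 CPM in Empty (SD, n = 3 each). CACNA1E, the R-type pore, was near the lower end of detection, at 1.12 ± 0.302 CPM in the libraries labelled sgZHX3-3 and 0.905 ± 0.144 CPM in Empty (SD, n = 3 each), and its interval from −0.23 to 0.82 leaves its direction undetermined at this depth. Per kilobase of transcript, CACNA1H was the most abundant pore subunit, with 45.9% to 47.9% of the summed level in the libraries labelled sgZHX3-3 and 41.5% to 46.5% in Empty. CACNA1C followed with 18.7% to 19.8% in the libraries labelled sgZHX3-3 and 19.2% to 19.4% in Empty, but this second place depends on the length used: over all annotated exons CACNA1D stood at 7.23 and CACNA1C at 7.17 CPM per kilobase, with CACNA1H still first at 46.1. All 8 pores summed to 116, 118 and 127 CPM per kilobase in the libraries labelled sgZHX3-3 and to 96.9, 94.1 and 87.9 CPM per kilobase in Empty.

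**Figure D2:**
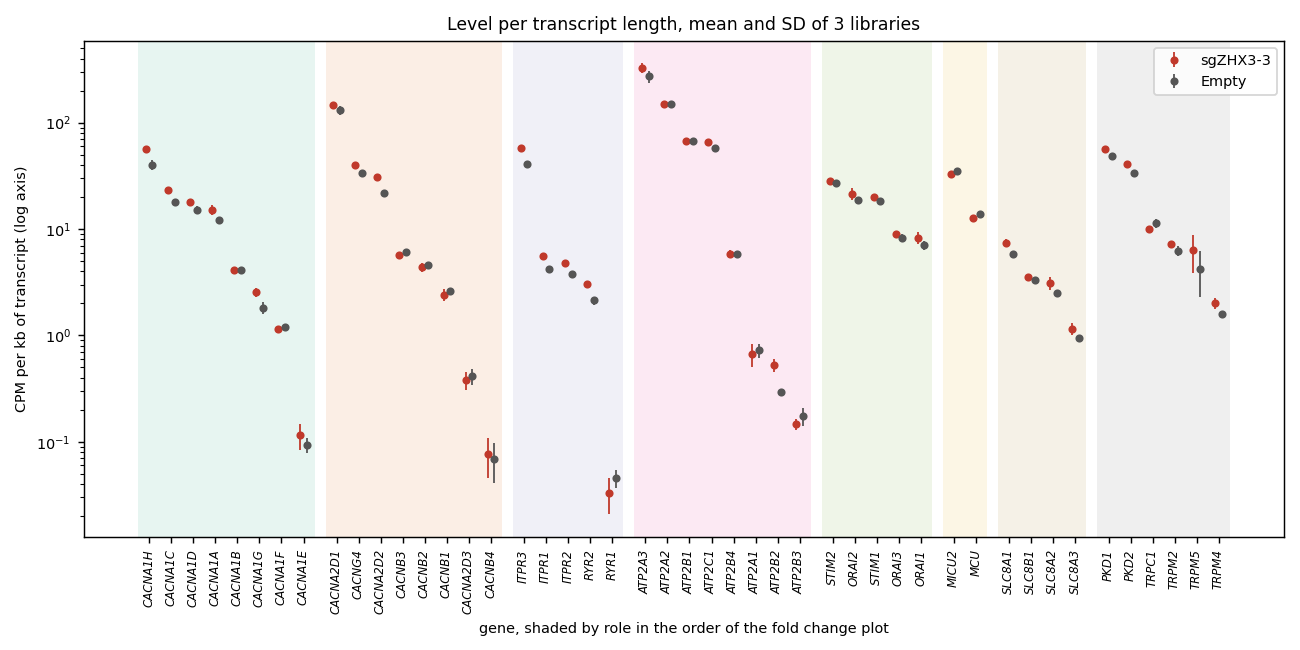
Level per kilobase of principal transcript on a log axis for the 46 tested members, shaded by role; red points are the libraries labelled sgZHX3-3, grey points Empty, and bars the SD of 3 libraries. ATP2A3 is the most abundant member, at 328 CPM per kilobase in the libraries labelled sgZHX3-3 and 272 in Empty, while RYR1, CACNB4 and CACNA1E lie lowest.

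Of the auxiliary subunits, many of which set the surface level and gating of the pores, CACNA2D2 and CACNG4 were higher. CACNA2D2, an α2δ subunit, had 153, 155 and 171 CPM in the libraries labelled sgZHX3-3 and 115, 117 and 112 CPM in Empty. Its groups lay well apart, with a log2 fold change of 0.48 (SE 0.0565, edgeR adjusted p = 0.000276), the second smallest adjusted p of the members after ITPR3. It lies at chr3:50362799-50504244 on the minus strand and shares 9.59% of its exon bases with CYB561D2, which had 6995 counts in all and a log2 fold change of −0.0026. CACNG4, a γ subunit, had 129, 136 and 143 CPM in the libraries labelled sgZHX3-3 and 123, 111 and 107 CPM in Empty (log2 fold change 0.26, SE 0.0629, edgeR adjusted p = 0.0181). Its call was lost without sgZHX3-3 library 2 (edgeR adjusted p = 0.0841) or 3 (0.0579), without Empty 2 (0.0857) or Empty 3 (0.110), and with Empty 2 and 3 both left out (0.16, 0.421).

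CACNA2D1, another α2δ subunit and by far the most abundant auxiliary gene per kilobase, had 1121, 1108 and 1113 CPM in the libraries labelled sgZHX3-3 and 1101, 981 and 897 CPM in Empty. Empty 1 lay just under the libraries labelled sgZHX3-3, and the gene did not pass (log2 fold change 0.17, edgeR adjusted p = 0.123) except without Empty 1 (0.25, adjusted p = 0.00495). None of the 4 β subunits, which bring the pores to the membrane, passed: CACNB1 was at −0.13, CACNB2 at −0.07, CACNB3 at −0.10 and CACNB4 at 0.20 on the log2 scale. CACNB3 was slightly below Empty in every library labelled sgZHX3-3, by a margin lost to rounding at its narrowest, with 14.2, 15.5 and 16.1 CPM in the libraries labelled sgZHX3-3 against 16.1, 16.2 and 16.9 CPM in Empty (edgeR adjusted p = 0.405). CACNA2D3 was at 1.39 ± 0.274 CPM in the libraries labelled sgZHX3-3 and 1.52 ± 0.265 CPM in Empty (SD, n = 3 each).

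The main pumps of the cell did not pass, and the called pumps were a scarce one and a Golgi one. ATP2A2, the SERCA2 pump that refills the endoplasmic reticulum, had 622, 595 and 620 CPM in the libraries labelled sgZHX3-3 and 622, 618 and 616 CPM in Empty. The libraries were nearly level, with a log2 fold change of −0.02 and a 95% interval from −0.12 to 0.09. ATP2B1, a plasma membrane pump, had 495, 479 and 439 CPM in the libraries labelled sgZHX3-3 and 481, 480 and 451 CPM in Empty, with an interval from −0.12 to 0.12. ATP2B4, a related pump, had an interval from −0.14 to 0.16. ATP2A3, the SERCA3 pump typical of beta cells and the most abundant member per kilobase, had 1419, 1466 and 1715 CPM in the libraries labelled sgZHX3-3 and 1471, 1176 and 1164 CPM in Empty. Here Empty 1 lay among the libraries labelled sgZHX3-3, apart from Empty 2 and 3. The gene did not pass (log2 fold change 0.27, SE 0.0956, edgeR adjusted p = 0.0900); it passed without Empty 1 (0.39, adjusted p = 0.00280) and with DESeq2 (adjusted p = 0.0235).

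ATP2B2, a plasma membrane pump best known from hair cells and neurons, showed the largest fold change among the called members, at a low level. It had 5.41, 4.39 and 4.17 CPM in the libraries labelled sgZHX3-3 and 2.74, 2.67 and 2.40 CPM in Empty, from 242, 219 and 251 counts in the libraries labelled sgZHX3-3 and 128, 158 and 118 counts in Empty. The groups did not overlap, and the log2 fold change was 0.83 (SE 0.140, edgeR adjusted p = 0.00254); with Empty 2 and 3 left out it was 0.76 and did not pass (adjusted p = 0.113). ATP2C1, the calcium and manganese pump of the Golgi, had 230, 226 and 211 CPM in the libraries labelled sgZHX3-3 and 203, 195 and 191 CPM in Empty (log2 fold change 0.18, SE 0.0529, edgeR adjusted p = 0.0428). This was the smallest change called. The ATP2C1 call was lost without sgZHX3-3 library 1 (edgeR adjusted p = 0.113) or 2 (0.175), without Empty 2 (0.140) or Empty 3 (0.179), without both of these Empty libraries (0.438), with library totals alone (0.0848), and with the gene span trend removed (0.131). The muscle pump ATP2A1 and the neuronal pump ATP2B3 stayed under 3 CPM in every library and did not pass.

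No member of store-operated entry passed with edgeR, DESeq2 or limma-voom. At an unadjusted edgeR p under 0.05, 3 of the 5 were higher, where 2353 of all 16199 tested genes were. STIM1, the calcium sensor of the endoplasmic reticulum, had 79.6, 78.7 and 82.3 CPM in the libraries labelled sgZHX3-3 and 74.3, 74.4 and 71.2 CPM in Empty, without overlap (log2 fold change 0.13, edgeR adjusted p = 0.128). The other sensor, STIM2, was at 0.06 on the log2 scale, and the channel subunits ORAI1, ORAI2 and ORAI3 were at 0.24, 0.20 and 0.11. ORAI2 passed without sgZHX3-3 library 1 (0.28, edgeR adjusted p = 0.0428).

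The mitochondrial pair lay below Empty without passing; neither gene was under 0.05 before adjustment, and DESeq2 and limma-voom called neither. MCU, the pore of the mitochondrial calcium uniporter, had 39.1, 37.4 and 35.7 CPM in the libraries labelled sgZHX3-3 and 41.6, 41.3 and 39.3 CPM in Empty. All libraries labelled sgZHX3-3 were thus below all Empty libraries, as they were for 16.0% of tested genes, with a log2 fold change of −0.12 and a 95% interval from −0.26 to 0.0090 (edgeR adjusted p = 0.208). MICU2, a gatekeeper of the uniporter, was at −0.10 (edgeR adjusted p = 0.322).

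Of the exchangers, which swap calcium for sodium, SLC8A1 was higher. It had 24.4, 24.8 and 21.4 CPM in the libraries labelled sgZHX3-3 and 17.9, 18.7 and 19.3 CPM in Empty, without overlap (log2 fold change 0.34, SE 0.0770, edgeR adjusted p = 0.0149). The call was lost without sgZHX3-3 library 2 (edgeR adjusted p = 0.0941) or Empty 2 (0.0588), with Empty 2 and 3 left out (0.40, 0.141), and with the gene span trend removed (0.17, 0.190). SLC8A1 spans 514 kb and shares 9.31% of its exon bases with SLC8A1-AS1 on the opposite strand, which had 170 counts in all. SLC8A2 was close to passing, with 14.2, 15.7 and 18.5 CPM in the libraries labelled sgZHX3-3 and 14.0, 12.4 and 12.5 CPM in Empty (log2 fold change 0.32, edgeR adjusted p = 0.0538). SLC8A2 passed with DESeq2 (0.0247), without Empty 1 (0.0242), without sgZHX3-3 library 1 (0.0280), with no expression filter (0.0337) and with the gene span trend removed (0.0439). SLC8A3 was at 0.29 (edgeR adjusted p = 0.137), and the mitochondrial exchanger SLC8B1 at 0.09 (0.542).

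The polycystins, membrane proteins of the primary cilium whose loss causes polycystic kidney disease, were both higher. PKD1 had 785, 785 and 837 CPM in the libraries labelled sgZHX3-3 and 701, 693 and 665 CPM in Empty (log2 fold change 0.22, SE 0.0510, edgeR adjusted p = 0.0144). PKD2, its channel partner, had 195, 200 and 220 CPM in the libraries labelled sgZHX3-3 and 184, 166 and 159 CPM in Empty (0.27, SE 0.0655, adjusted p = 0.0180). Neither gene had overlapping groups. PKD1 shares 4.2% of its exon bases with TSC2 on the opposite strand, which had 21195 counts in all. Near-identical copies of PKD1 were listed with many counts (PKD1P6 35278 and PKD1P1 26107 over all libraries), and how multi-mapping reads were handled is unstated in the sources used here, so the PKD1 value is uncertain. PKD1 lost its call without sgZHX3-3 library 2 (edgeR adjusted p = 0.0591), Empty 2 (0.0584) or Empty 3 (0.0907), and PKD2 without sgZHX3-3 library 2 (0.0623) or 3 (0.0610), Empty 2 (0.0844) or Empty 3 (0.108). With Empty 2 and 3 both left out PKD1 was at 0.19 (edgeR adjusted p = 0.250) and PKD2 at 0.16 (0.426).

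The TRP channels did not pass. TRPM5, a calcium-activated cation channel that depolarises beta cells, had 17.8, 20.9 and 35.8 CPM in the libraries labelled sgZHX3-3 and 25.4, 13.1 and 11.5 CPM in Empty. Its groups overlapped, sgZHX3-3 library 3 and Empty 1 being the highest of their groups, and its log2 fold change of 0.59 had an interval from −0.59 to 1.77; with Empty 2 and 3 left out it was −0.02. TRPM4, a related channel, had 7.67, 7.80 and 9.38 CPM in the libraries labelled sgZHX3-3 and 7.01, 6.25 and 6.46 CPM in Empty, without overlap (log2 fold change 0.34, edgeR adjusted p = 0.0588), and it passed without Empty 1 (0.0329) and with DESeq2 (0.0412). TRPM2, a calcium-permeable channel opened by ADP-ribose, was at 0.21 (edgeR adjusted p = 0.117) and passed without Empty 1 (0.29, adjusted p = 0.0189). TRPC1, a cation channel, was the one member under an unadjusted p of 0.05 in the lower direction, with 43.7, 42.1 and 43.3 CPM in the libraries labelled sgZHX3-3 and 53.7, 46.7 and 45.6 CPM in Empty (log2 fold change −0.18, edgeR adjusted p = 0.113).

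In the 16 called members every library labelled sgZHX3-3 lay above every Empty library, which follows in part from how they were called. Over all 46 tested members the groups did not overlap in 21 higher and 3 lower members, where 16.0% of tested genes had no overlap in each direction. The order within the groups was not fixed: sgZHX3-3 library 3 was the highest of its group in 10 of the 16, Empty 2 was the highest Empty library in 8, Empty 1 in 7 and Empty 3 in 1. As a difference in log2 CPM from each gene's mean, the median called member stood at 0.16, 0.18 and 0.23 in the libraries labelled sgZHX3-3, and at −0.21, −0.16 and −0.22 in Empty 1, 2 and 3. Over all tested members these medians were 0.03, 0.08 and 0.16 in the libraries labelled sgZHX3-3 and −0.03, −0.10 and −0.13 in Empty. Empty 1 had the lowest summed stress genes of the Empty libraries. By these medians Empty 1 was no nearer to the libraries labelled sgZHX3-3 than Empty 2 in the called members. Over all tested members Empty 1 was nearer than both other Empty libraries. Calling favours genes whose libraries lie close together within each group, so the order in the called members is shaped in part by the selection. The part of the stress genes in either order was not tested.

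**Figure D3:**
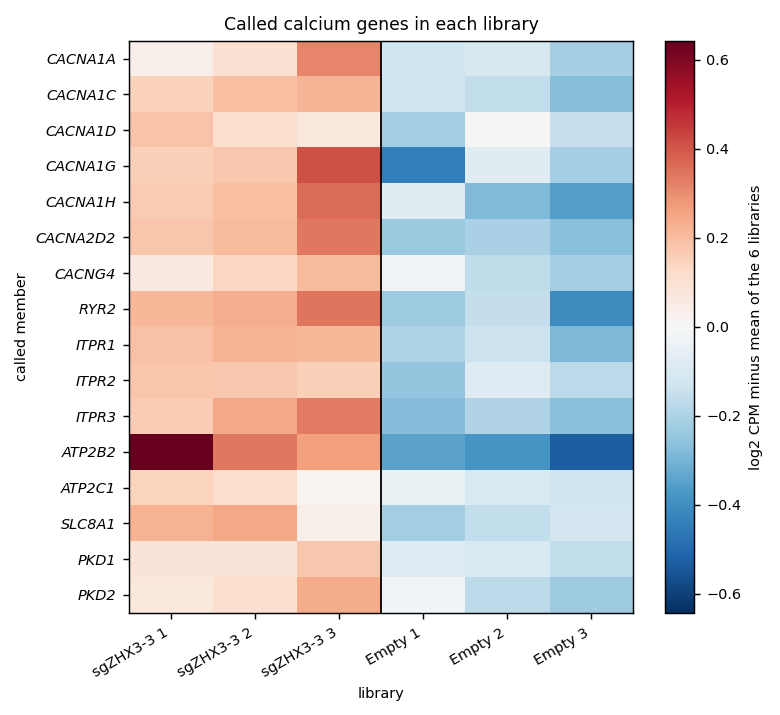
Log2 CPM of each of the 16 called members (down) in each of the 6 libraries (across), as the difference from that gene's mean over all libraries, red above and blue below. The 3 libraries labelled sgZHX3-3 lie above the 3 Empty libraries in every member; ATP2B2 has the widest range, and sgZHX3-3 library 3 is the reddest of its group in 10 members.

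The number of members called varied with the setting, as did the share of all genes called higher. It was 16 (7.24% of all genes) with RLE size factors, 14 (5.58%) with library totals only, 17 (5.64%) with no expression filter and 16 (8.07%) with a filter of 1 CPM in 3 libraries. Leaving out sgZHX3-3 library 1, 2 or 3 gave 16 (6.14%), 9 (3.01%) and 14 (5.11%). The 16 without sgZHX3-3 library 1 held 14 of the members called on all libraries. CACNA1D and ATP2C1 lost their calls there, and ORAI2 and SLC8A2 gained them. Leaving out Empty 1, 2 or 3 gave 21 (10.9%), 11 (3.42%) and 10 (2.89%). A block for the replicate number gave 9 (3.19%). With this block CACNA1A, CACNA1D, CACNG4, ATP2C1, SLC8A1, PKD1 and PKD2 lost their calls (edgeR adjusted p from 0.0676 to 0.0966).

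With Empty 2 and 3 left out, 6 of the 16 were still called, namely the 4 release channels, CACNA1G and CACNA2D2, where 1.26% of all genes tested in that setting were higher. That setting assumes the lone Empty library to vary as the other group does, and a lost call does not show that a change rested on the libraries left out. The log2 fold changes of the 16 lay between 0.14 and 0.76 in this setting, with a sign already fixed by the lack of overlap between the groups. Gene length ran alongside the calls as well. The tested members spanned a median of 115 kb and all tested genes 30.9 kb; the called members spanned 260 kb and the members not called 88.4 kb. Of the 657 tested genes over 300 kb, 32.3% were higher, and of the 12 members of that length 8 were. Once a loess trend of the fold change with gene span had been removed, 10 of the 16 kept their call and SLC8A2 joined them, where 5.98% of all tested genes were higher. The 6 that lost it were CACNA1A, CACNA1C, CACNA1D, ITPR2, ATP2C1 and SLC8A1.

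**Figure D4:**
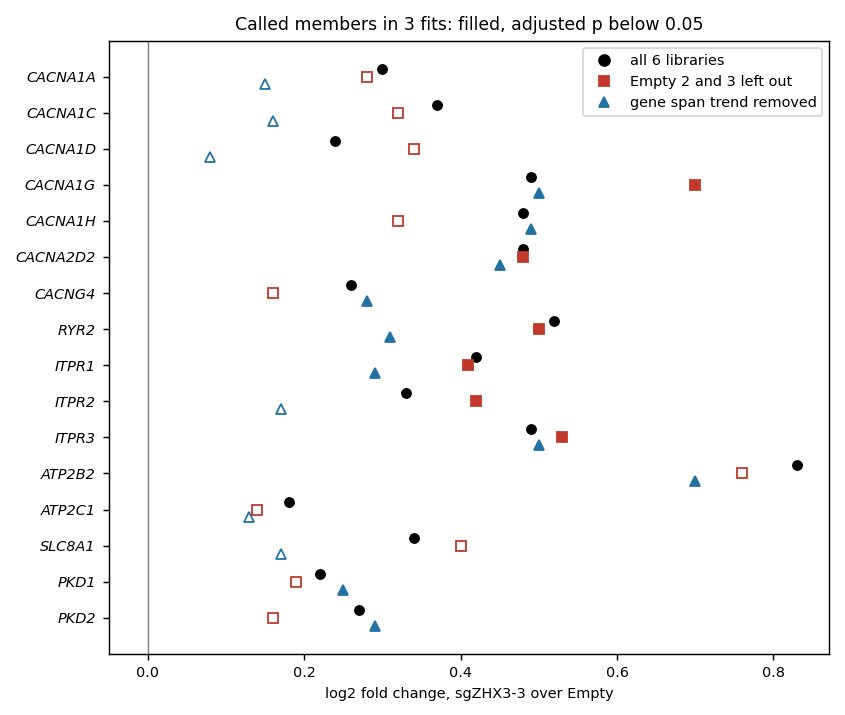
Log2 fold change of the 16 called members in 3 fits: all 6 libraries (black circles), Empty 2 and 3 left out (red squares) and the gene span trend removed (blue triangles). Filled symbols passed at an adjusted p below 0.05; CACNA1G, CACNA2D2, RYR2, ITPR1 and ITPR3 are filled in all 3 fits.

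A wider list of calcium handling genes held calls as well; its share was not tested against that of the members. Of 155 listed genes outside the 48, 149 were in the table and 105 were tested; 20 of them (19.0%) were higher and 2 lower, where 7.11% of all tested genes were higher and 4.98% lower, and their median log2 fold change was 0.04. The higher ones were 6 of 14 other channel subunits (42.9%), 8 of 46 sensors and effectors (17.4%), 4 of 28 other store, pump and mitochondrial genes (14.3%) and 2 of 17 other TRP, exchanger and polycystin genes (11.8%), the last of these nearest to the share over all genes. PLCH2, a phospholipase C that makes IP3, had 14.8, 16.4 and 16.0 CPM in the libraries labelled sgZHX3-3 and 9.45, 9.09 and 9.16 CPM in Empty, far apart for the spread within either group (log2 fold change 0.77, SE 0.0805, edgeR adjusted p = 0.000118). PRKCA, a calcium-dependent protein kinase C, was at 218 ± 5.33 CPM in the libraries labelled sgZHX3-3 and 159 ± 5.80 CPM in Empty (SD, n = 3 each; log2 fold change 0.46, edgeR adjusted p = 0.000208). TRPM3, a cation channel of beta cells and sensory neurons, was at 23.9 ± 2.22 CPM in the libraries labelled sgZHX3-3 and 14.0 ± 1.27 CPM in Empty (SD, n = 3 each; 0.77, adjusted p = 0.000255). These 3 kept their calls without any 1 library, with Empty 2 and 3 left out and with the gene span trend removed. RIMBP2, which ties calcium channels to release sites (0.36), the kinase-like CAMKV (0.39), the store protein ASPH (0.32), the kinase CAMK1D (0.32), the Golgi pump ATP2C2 (0.35), the channel subunit CACNG5 (0.65) and the CaM kinase inhibitor CAMK2N1 (0.23) also passed on all 6 libraries. Each of these 7 lost its call with Empty 2 and 3 left out (edgeR adjusted p from 0.0649 to 0.448), where the log2 fold change was 0.88 for CACNG5, 0.51 for ATP2C2, 0.39 for CAMKV, 0.37 for CAMK1D, 0.25 for RIMBP2, 0.25 for ASPH and 0.12 for CAMK2N1. CAMK1D lost its call also with the gene span trend removed (0.162). Without single libraries CAMK1D lost it without sgZHX3-3 library 2 (edgeR adjusted p = 0.0746), ATP2C2 without sgZHX3-3 library 1 (0.0559) or 2 (0.0969) or Empty 3 (0.0513), CACNG5 without sgZHX3-3 library 1 (0.0576) or 2 (0.0530) or Empty 2 (0.0854), and CAMK2N1 without sgZHX3-3 library 2 (0.0990), Empty 2 (0.0971) or Empty 3 (0.117). The lower pair were CALR, the calcium-binding chaperone calreticulin, at 834 ± 23.7 CPM in the libraries labelled sgZHX3-3 and 957 ± 38.7 CPM in Empty (SD, n = 3 each; log2 fold change −0.20, edgeR adjusted p = 0.0271), and GEM, a GTPase that inhibits calcium channels, at 32.8 ± 0.621 CPM in the libraries labelled sgZHX3-3 and 39.8 ± 5.12 CPM in Empty (−0.28, adjusted p = 0.0468). CALR lost its call without sgZHX3-3 library 1 (edgeR adjusted p = 0.0797) or 2 (0.114), Empty 2 (0.0752) or Empty 3 (0.163), and GEM without any library other than Empty 1 (0.103 to 0.245); with Empty 2 and 3 left out they were at −0.16 and −0.06, and GEM did not pass with the gene span trend removed (edgeR adjusted p = 0.0648).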

How the data were processed

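Libraries were prepared with a directional NEBNext Ultra kit, per the labels' protocols. The submitters' processing notes name STAR, featureCounts and hg38; their versions, the annotation, the strand setting and the handling of multi-mapping reads are unstated in the sources used here. The deposited table holds whole-number counts for each gene symbol with no normalisation, as its values show. Genes were kept by filterByExpr (minimum count 10, minimum total 15), leaving 16199. Counts were tested with edgeR 4.0.16 (R 4.3.3; TMM factors 0.984 to 1.02; robust quasi-likelihood test, group only) with Benjamini-Hochberg adjustment over all genes, called at 0.05; the common biological coefficient of variation was 6.91%. SE was taken as the absolute log2 fold change over the root of F. Levels per kilobase use the longest GENCODE 29 principal transcript. Gene spans were found for 15083 tested genes; the trend with span was entered as an offset. Alternatives used limma 3.58.1 and DESeq2 1.42.0. Members, lists and alternatives were chosen with earlier results of these data known. All members could be named, the called ones in full; of the other genes, the 10 called genes with the smallest adjusted p in each direction and at least 1 CPM.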

Additional observations from a re-analysis of the deposited data

How the results depend on the processing

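Of the 16 called members, 9 kept their call without any 1 library, a count not made for all genes called higher. The sign of the 16 could not turn when libraries were left out, since their groups did not overlap. Of the members 9 were higher at an adjusted p below 0.01, 6 without Empty 2 and 3, and 9 to 21 without single libraries; 0 were lower in each setting. Their median moved to 0.12 without Empty 2 and 3 and to 0.13 with the span trend removed. Deviations of same-numbered libraries correlated at −0.29, 0.16 and −0.27 for numbers 1 to 3. With 3 libraries centred per group these values are tied to each other and cannot show whether replicate numbers pair the samples. With the number as a block 9 members were higher, with 516 of all genes higher and 239 lower. Of the other calcium genes 7 were then higher and 0 lower. Of all genes, 467 were higher and 194 lower below 0.01, and 209 and 40 without Empty 2 and 3. Library totals alone gave 1272 lower genes. Without single libraries 474 to 1792 genes were higher and 184 to 1499 lower. The other calcium genes gave 6 higher and 0 lower below 0.01, 3 and 0 without Empty 2 and 3, 4 lower with library totals, 1 lower with limma-voom, and 6 to 22 higher and 0 to 3 lower without single libraries. Levels per kilobase depend on the length used: with all annotated exons ATP2A3 stayed first and CACNA2D1 second, and ATP2A2 was sixth.

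Some members, none of them called, changed sign; most were near 0, but TRPM5 (0.59), CACNB4 (0.20), CACNA2D1 (0.17), ATP2A1 (−0.12) and ORAI3 (0.11) were not. With library totals CACNA1B was at −0.03, ATP2B1 at −0.04 and ATP2B4 at −0.03; with the span trend removed CACNA1B was at −0.08, CACNA2D1 at −0.00018, ATP2B1 at −0.02 and ATP2B4 at −0.0081. ATP2B1 was at −0.00020 with no expression filter, −0.00016 with the block and −0.00082 with limma-voom. Without Empty 2 and 3 ATP2A1 was at 0.09, ATP2B1 at −0.03, ORAI3 at −0.02 and TRPM5 at −0.02. Without single libraries CACNA1B ran from −0.04 to 0.05, CACNB4 ran from −0.12 to 0.53, ATP2A1 ran from −0.29 to 0.05, ATP2A2 ran from −0.03 to 0.0040, ATP2B1 ran from −0.04 to 0.05 and ATP2B4 ran from −0.05 to 0.07. The cause was not tested. Genes under about 1 CPM, such as CACNA1E, CACNB4, RYR1 and ATP2B3, have intervals too wide to place at this depth.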
